A study of Drosophila melanogaster with 8 samples.

Results

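CG7214, CG7203 and Acp1 (CG7216) are 3 small genes that lie close together on the left arm of chromosome 2 of Drosophila melanogaster. They were picked by their CG numbers, for levels in fly heads that had been seen to fall with warmth, and they are 3 of the 11500 genes and 3 of the 18387 transcripts in the table (CG7214-RA, CG7203-RB and CG7216-RA). Because the temperature pattern is what chose them, their levels at each temperature are given here as a description and were not tested. Polyadenylated RNA was measured in heads of the wild-type strain Canton-S at 3 temperatures. Heads of flies kept at 18°C gave 3 libraries (ZT3, ZT15, ZT23). Flies kept at 25°C gave 2 (ZT3, ZT15) and those kept at 29°C gave 3 (ZT3, ZT15, ZT23). ZT is the hour after lights on, and the last time point is named as the labels give it (the methods name an earlier hour). With a single library for every condition, time points stood as replicates within a temperature, and a spread between libraries includes any change over the day. The labels give neither the sex nor the age of the flies, nor how many heads went into a library.

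The outer skeleton of an insect is a layered cuticle that the epidermis beneath it secretes. It is made of chitin fibrils and of proteins, many of them from large families that bind chitin, and it is hardened and darkened after secretion by catechols made from tyrosine. Adult flies go on laying down cuticle after they emerge, and the layers deposited by day and by night differ in structure. Acp1 (Adult cuticle protein 1) is named for its place in the adult cuticle. CG7214 and CG7203 carry no name beyond their CG numbers in the annotation used here.

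In the annotation of BDGP6 (the reads themselves had been aligned to the older genome dm3), the 3 genes lie within 12.6 kb of chromosome arm 2L, all on the minus strand. Acp1 (FBgn0014454) spans 2L:7740562-7741537, CG7214 (FBgn0031940) spans 2L:7743682-7744839 and CG7203 (FBgn0031942) spans 2L:7752170-7753186. The gap between Acp1 and CG7214 is 2144 bp, and that between CG7214 and CG7203 is 7330 bp. CG7203 overlaps the opposite-strand gene lncRNA:CR45718 by 4 bp, and neither of the other members overlaps a gene.

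The 3 gene models share a layout that the choice of members did not use. Each transcript has 2 exons, and the first exon holds only 6 coding bases, a start codon and 1 further codon, so that the rest of the protein is encoded by exon 2. The proteins are 142 (CG7214), 129 (CG7203) and 135 (Acp1) amino acids long. A first coding exon of exactly 6 bases was found in 44 of the 10580 listed genes with 2 or more coding exons (0.416%). In the CPR family, the largest family of chitin-binding cuticle proteins, 2 of 88 such genes had exactly 6 bases, while 50 of 88 (56.8%) had at most 12, against 555 of the 10580 listed genes (5.25%). The layout was noticed after the gene models had been read, and it is given as a description.

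Values are the average coverage per base pair of a transcript, each library scaled to a sum of 1000000, and they are called coverage below. Before scaling a library summed to between 92886 and 108550, and the depth in reads is unknown. Photoreceptors, the light-sensing cells of the eye, mark a fly head, and their 8 matched markers summed to a coverage of 23173 to 28210 at 29°C and 14031 to 18756 at 18°C, with 5 of the 8 higher at 29°C without overlap, 1 (ninaC) lower without overlap and Rh4 and Arr1 overlapping. The 6 muscle markers summed to 1905 to 2456 at 29°C and 4699 to 5742 at 18°C. Of the 6, 3 (Act57B, Mhc and Mlc2) were lower at 29°C without overlap, and Act88F, TpnC4 and fln overlapped. The 4 neuron markers summed to 394 to 484 at 29°C and 434 to 536 at 18°C. Of these, 2 (brp and Syt1) were lower at 29°C without overlap, and nSyb and elav overlapped. The glia marker repo was lower without overlap, at 17.3 to 17.4 at 29°C and 20.4 to 23.6 at 18°C. Among all 8433 genes kept, limma called 14.2% higher and 16.2% lower at 29°C than at 18°C. The 5 fat body markers summed to 13719 to 20059 at 18°C, 43767 and 48120 at 25°C and 9971 to 16834 at 29°C. Of these, Yp1, Yp2 and Yp3, which encode yolk proteins, were higher in both 25°C libraries than in any other, and they make up nearly all of the sums. At 25°C the markers to (11.4 and 8.47) and Cyp4d21 (29.5 and 76.5) overlapped their 18°C ranges (6.87 to 12.3 and 16.3 to 39.3). The part of these cell types in the values of the members was not tested. The 29°C ZT15 library stood apart, with 5 accessory gland markers summing to 268 against 0.10 to 0.55 in the other 7 libraries, 3 midgut markers summing to 661 against 0.14 to 1.32, and 590 transcripts at 0 against 1435 to 1612. In it, 4 testis markers summed to 22.8 against 0.51 or less, and the muscle markers Act88F (13.4), fln (7.08) and TpnC4 (3.58) had their highest values. It also held 121 of Acp65Aa and 34.8 of Cpr49Ab, cuticle genes at 9.85 and 1.58 or less in the other libraries and singled out after their values were seen.

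CG7214 had a coverage of 1281, 1047 and 1191 at 18°C (ZT3, ZT15 and ZT23), 385 and 389.7 at 25°C (ZT3 and ZT15), and 30.1, 50.7 and 51.8 at 29°C (ZT3, ZT15 and ZT23). No library of one temperature reached into the range of another. Coverage averaged 1173 ± 118 at 18°C (SD, n = 3), 387 ± 3.56 at 25°C (SD, n = 2) and 44.2 ± 12.2 at 29°C (SD, n = 3). CG7214 therefore stood lower at each warmer temperature, and mean coverage at 18°C was 26.5 times that at 29°C and 3.03 times that at 25°C.

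Acp1 was also lower at each warmer temperature, by less. It had a coverage of 2100.3, 2059.6 and 1349 at 18°C, 1268 and 1256 at 25°C, and 235, 492 and 418 at 29°C, in the same order of time points. The lowest 18°C library (ZT23) was only just above the 25°C libraries, while the 3 libraries at 29°C lay well below both. The means were 1836 ± 423, 1262 ± 8.44 and 382 ± 132 in the libraries of 18°C, of 25°C and of 29°C (SD, n = 3, 2 and 3), so that mean coverage at 18°C was 4.81 times that at 29°C.

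CG7203 goes against a graded fall with warmth. Its coverage was 2743, 3309 and 1577 at 18°C, 2946 and 3152 at 25°C, and 1194, 2004 and 1366 at 29°C. The 25°C libraries lay inside the range of the 18°C libraries, and the 29°C range overlapped the 18°C range, since the ZT23 library at 18°C (1577) was below the ZT15 library at 29°C (2004). Only the 29°C and 25°C libraries were apart. The means were 2543 ± 883, 3049 ± 146 and 1521 ± 427 in the libraries of 18°C, of 25°C and of 29°C (SD, n = 3, 2 and 3). The 25°C group holds no ZT23 library, the time point at which CG7203 was lowest at 18°C, and at matched time points the difference of 25°C minus 18°C was 0.10 at ZT3 and -0.07 at ZT15 on the log2 scale. The difference of the means, 0.33, was 0.0165 without the ZT23 library and 0.55 without the ZT15 library at 18°C, so the direction between 25°C and 18°C is not settled.

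**Figure D1:**
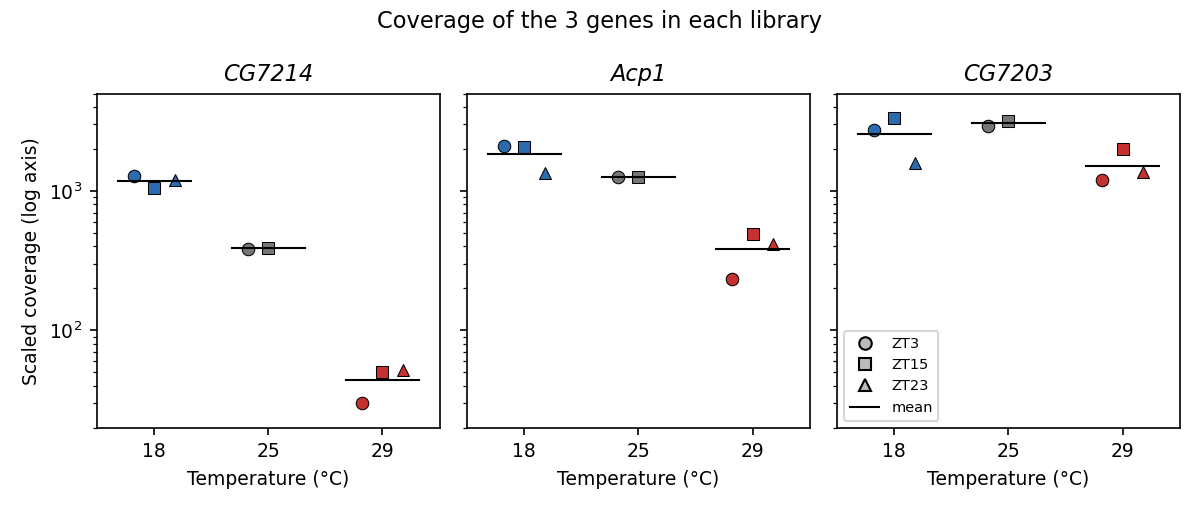
Scaled coverage (log axis) of CG7214, Acp1 and CG7203 in each of the 8 libraries against temperature in °C, with circles for ZT3, squares for ZT15, triangles for ZT23 and a line for the mean. The CG7214 points fall in separate bands at 18°C (1047 to 1281), 25°C (385 and 389.7) and 29°C (30.1 to 51.8), while the CG7203 points at 25°C lie among those at 18°C.

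On the log2(coverage + 1) scale, the difference of 29°C minus 18°C was -4.73 for CG7214, -2.30 for Acp1 and -0.71 for CG7203. Among the 8433 genes kept, each with its transcript of highest mean coverage, CG7214 had the most negative difference. Acp1 was 24th from that end and CG7203 was 667th. Most of the difference lay between 25°C and 29°C, although that step is the narrower. The difference of 29°C minus 25°C was -3.14 for CG7214, -1.79 for Acp1 and -1.04 for CG7203, and that of 25°C minus 18°C was -1.59, -0.51 and 0.33 for the same genes. Per degree, CG7214 differed by -0.23 between 18°C and 25°C and by -0.79 between 25°C and 29°C, and Acp1 by -0.07 and -0.45. The 25°C group holds no ZT23 library, the time point at which Acp1 was lowest at 18°C. At matched time points, 25°C minus 18°C was -0.73 (ZT3) and -0.71 (ZT15) for Acp1, and -1.73 and -1.42 for CG7214. There, 29°C minus 25°C was -2.43 and -1.35 for Acp1, and -3.63 and -2.92 for CG7214.

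The difference of 29°C minus 18°C was negative at each time point for all 3 genes, with sizes that varied. Between single libraries taken at the same time point, the log2 difference of 29°C minus 18°C for CG7214 was -5.37 at ZT3, -4.34 at ZT15 and -4.50 at ZT23. For Acp1 it was -3.15, -2.06 and -1.69, and for CG7203 -1.20, -0.72 and -0.21 at the same time points. All 3 genes were thus furthest apart between the temperatures at ZT3. Without the 29°C ZT15 library, the difference of the means was -4.85 for CG7214, -2.52 for Acp1 and -0.93 for CG7203. At 18°C, CG7214 ranked between 77 and 114 among the 18387 transcripts by coverage, at 25°C at 446 and 452, and at 29°C between 2637 and 4455.

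Because the genes differed by unequal amounts, the make-up of their joint coverage differed too. The summed coverage of the 3 genes was 6124, 6416 and 4116 at 18°C, 4599 and 4798 at 25°C, and 1459, 2547 and 1836 at 29°C. CG7214 made up between 16.3% and 28.9% of that sum at 18°C, 8.36% and 8.12% at 25°C, and between 1.99% and 2.82% at 29°C. CG7203 made up between 38.3% and 51.6% at 18°C, 64.1% and 65.7% at 25°C, and between 74.4% and 81.8% at 29°C. In these bulk samples, fewer cells of a type and less RNA per cell cannot be told apart.

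**Figure D2:**
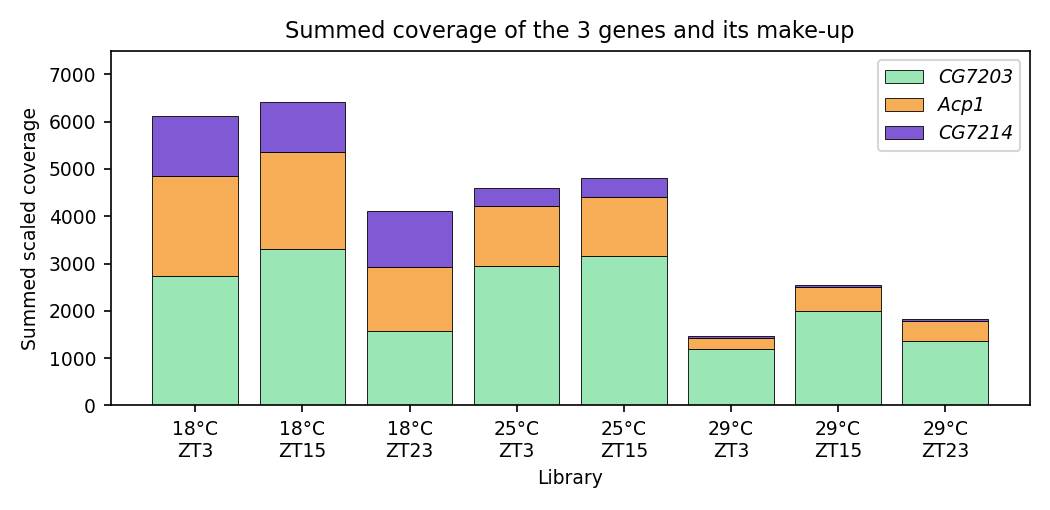
Summed scaled coverage of CG7203, Acp1 and CG7214 in each of the 8 libraries, with a coloured segment for each gene. The sum is between 1459 and 2547 at 29°C and between 4116 and 6416 at 18°C, and the CG7214 segment is a sliver of the bars at 29°C.

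Time of day was not used to choose the members, so it could be tested, with limma over all 14799 transcripts kept and temperature as a further term. None of the 3 genes passed an adjusted p of 0.05 in any of the 3 contrasts between time points. The nearest was CG7203, whose level at ZT23 against ZT15 differed by -0.74 (log2, SE 0.23, limma adjusted p = 0.134) and was lower in 2 of 2 temperatures. CG7203 was higher at ZT15 than at ZT3 at 3 of 3 temperatures, by 0.37 on the log2 scale (SE 0.19, limma adjusted p = 0.264). For ZT15 minus ZT3, CG7214 differed by 0.15 (SE 0.20, limma adjusted p = 0.620) and Acp1 by 0.34 (SE 0.28, limma adjusted p = 0.437).

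No transcript of the table passed in these contrasts either. With limma, 0 of 14799 transcripts (0.0%) were called in each of the 3, while 3506 (ZT15 minus ZT3), 3550 (ZT23 minus ZT15) and 2196 (ZT23 minus ZT3) had an unadjusted p under 0.05, and limma with a trend called 0, 385 and 0. The labelled hours can be read in tim, which encodes the partner of the clock protein PER. It had a coverage of 84.1, 143 and 152 at ZT15, from the coldest temperature to the warmest, against 25.9, 13.2 and 21.3 at ZT3.

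The genes around the members were then compared between 29°C and 18°C with limma over all transcripts. Within 20 kb of the 3 genes, 7 other genes were listed and 5 passed the filter on low values (ATPsynGL and CG46025 did not). Of these 5, 2 were called lower at 29°C and none higher, where 16.2% of the 8433 genes were called lower and 14.2% higher. CG31904, 1752 bp from Acp1 on the same strand, had a coverage of 125, 259 and 206 at 29°C, against 1131, 1037 and 739 at 18°C (ZT3, ZT15 and ZT23), with 667 and 660.02 at 25°C. Its log2 difference of 29°C minus 18°C was -2.34 (SE 0.26, limma adjusted p = 0.000914), or -2.56 without the 29°C ZT15 library, and the groups did not overlap.

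CG13796, next to CG31904 and one of a row of predicted neurotransmitter symporter genes, was the other one. It had a coverage of 4.07, 5.37 and 1.52 at 29°C, against 15.7, 15.8 and 6.94 at 18°C, a log2 difference of -1.59 (SE 0.38, limma adjusted p = 0.0153). That call was lost without the ZT3 library (limma adjusted p = 0.0675) or the ZT15 library (limma adjusted p = 0.0602) at 18°C. Calls over all transcripts also fell, from 4325 to 2316 and 2688 without the same libraries. CG13794 and CG13795, of the same row, differed by -0.38 (limma adjusted p = 0.319) and -0.29 (limma adjusted p = 0.358), and CG7191, beyond CG7203, by 0.14 (limma adjusted p = 0.356). Of these 5 genes only CG7191 lies beyond CG7203, and the others, called or not, lie on the Acp1 side of the members. With CG7191 alone on the far side, the calls cannot show whether the sides differ, and this was not tested.

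**Figure D3:**
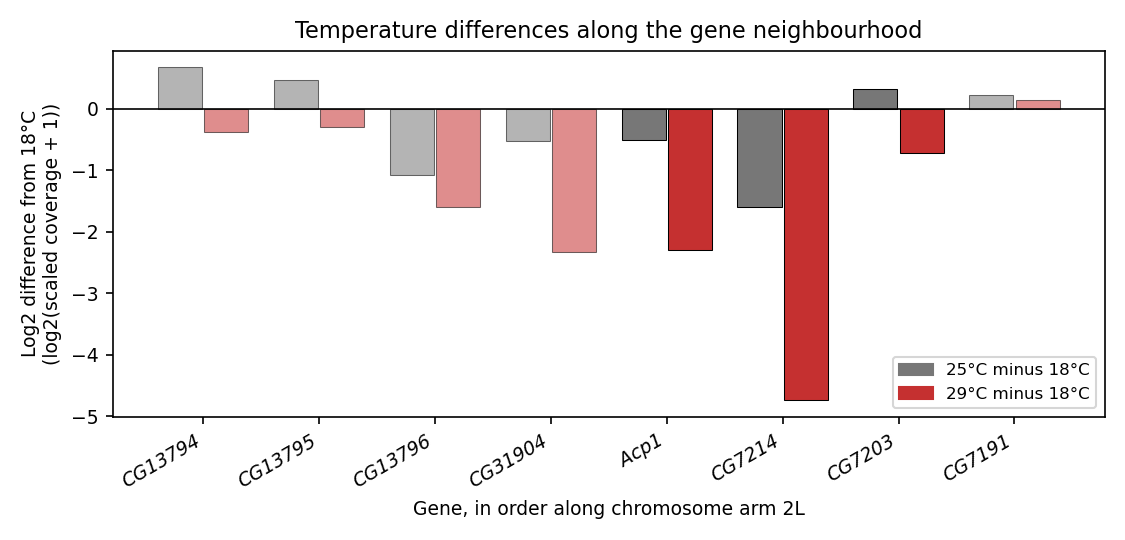
Log2 difference from 18°C, on the log2(scaled coverage + 1) scale, at 25°C (grey) and 29°C (red) for the 3 members (dark bars) and the 5 neighbours that passed the filter (pale bars), in their order along chromosome arm 2L. The bars for 29°C reach -4.73 at CG7214, -2.34 at CG31904 and -2.30 at Acp1, and CG7191 at the right end is at 0.14.

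CG31904 followed Acp1 more closely than any other gene did. Across the 8 libraries, the coverage of CG31904-RD was between 0.493 and 0.548 times that of Acp1, while coverage of Acp1 itself ran between 235 and 2100.3. Pearson's r of the log2 values was 0.999, the highest of 8432 genes, and it was 0.993, again the highest, after the mean of each temperature had been taken off. The 8 libraries fall into 3 temperatures and share them, so these values describe the likeness and carry no p. The gene models do not overlap in BDGP6, and an annotation of dm3 was not used here, so whether the coverage of these genes could share reads in the deposited table was not tested. The listed transcripts of CG31904 cannot be told apart in these values. CG31904-RB was between 0.543 and 0.544 times CG31904-RD in every library, which is also the quotient of their lengths in the annotation (0.544).

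**Figure D4:**
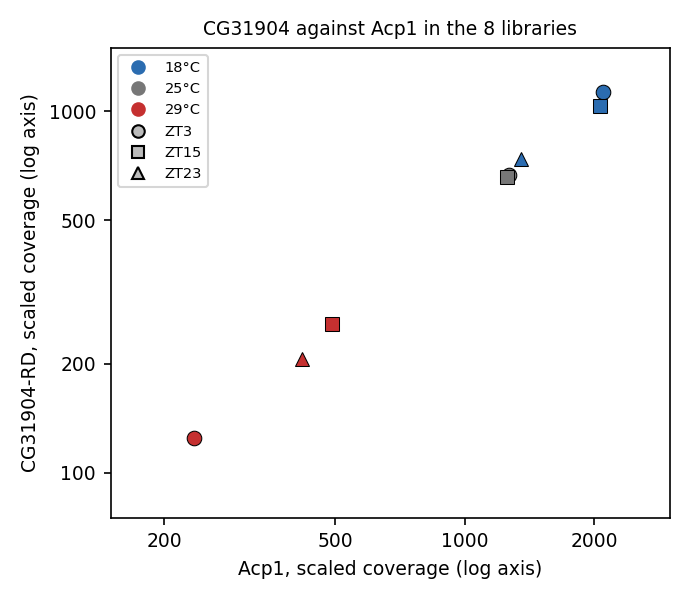
Scaled coverage of CG31904-RD against that of Acp1 in the 8 libraries (both axes logarithmic), coloured by temperature and shaped by time point. The points lie along a line over the range of 235 to 2100.3 for Acp1, with quotients between 0.493 and 0.548.

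Within the cluster, the genes were less alike. The r with CG7214 was 0.966 for Acp1 (32nd of 8432 genes) and 0.658 for CG7203 (1693rd), and with the temperature means taken off it was 0.75 and 0.26. CG7203 and Acp1 had an r of 0.813, and of 0.826 with the temperature means taken off. The 10 genes whose levels over the 8 libraries were most like those of CG7214 had an r between 0.977 and 0.991, and were Fkbp14, Marc, Aldh7A1, Sodh2, nrv2, Cys, CG6357, Nplp3, CG32425 and egr. Fkbp14, which encodes a prolyl isomerase of the endoplasmic reticulum, was first (r = 0.991), with a coverage of 30.8 ± 2.04 at 29°C and 51.0 ± 2.22 at 18°C (SD, n = 3 each). Nplp3, a neuropeptide-like precursor, was much more abundant, at 3584 ± 522 at 29°C and 9226 ± 1047 at 18°C (SD, n = 3 each). Likeness by r leaves size aside, and no other gene had as negative a difference of 29°C minus 18°C as CG7214 on the log2(coverage + 1) scale.

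Genes of the cuticle were compared in 5 lists that do not hold the members. Over the 5 lists, 181 genes were listed and 95 passed the filter, of which 59 were called lower and 3 higher at 29°C than at 18°C (all genes: 16.2% lower and 14.2% higher). Genes are counted by CG number, so Cht6 enters both as CG15313 (limma adjusted p = 0.0740, not called) and as CG2989 (limma adjusted p = 0.0146, called lower). The median log2 difference was -0.88 over the 95 genes, against -0.02 over all 8433 genes. With a library left out, the count called lower ran from 46 to 61, and it was 61 without the 29°C ZT15 library. A gene passes the filter more easily if it is high at one temperature, and the lists were drawn up with earlier results known, so these shares are descriptions.

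Structural proteins were the closest in kind to Acp1, the only member named as a cuticle protein. In the CPR family, 22 of 38 genes were called lower and 0 higher, with a median of -1.06. On the log2(coverage + 1) scale Ccp84Ag differed most, with a coverage of 1.70 ± 1.21 at 29°C and 14.5 ± 5.47 at 18°C (log2 difference -2.59, limma adjusted p = 0.00242), and Cpr100A was the more abundant, at 91.9 ± 15.1 at 29°C and 465 ± 135 at 18°C (-2.30, limma adjusted p = 0.000721). Cpr97Ea (-2.28), Cpr50Cb (-2.24) and Cpr62Bc (-2.15) came next. That scale understates low genes: by the quotient of the means Cpr11A, at 0.280 ± 0.0658 at 29°C and 4.92 ± 2.43 at 18°C (log2 difference -2.11, limma adjusted p = 0.00178), was further apart than Ccp84Ag, 17.6 times against 8.56 times higher at 18°C. In the Tweedle family, named for a mutant body shape, 3 of 17 genes passed the filter and all 3 (TwdlE, TwdlT and TwdlG) were called lower, all low, with group means under 6 at both temperatures. Of 15 other structural and chitin-binding proteins, 9 were called lower, led by Vajk3 (a valine- and lysine-rich cuticle protein gene) at 57.1 ± 23.6 at 29°C and 419 ± 173 at 18°C (log2 difference -2.85, limma adjusted p = 0.00176) and its relative Vajk2 (-2.80), with obst-B (-2.39), Vajk1 (-2.26) and obst-A (-1.99) next. On that scale all were nearer 0 than CG7214 (-4.73), and CG7203 (-0.71) lay on the other side of the CPR median.

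Enzymes that make or modify chitin and the tanning enzymes gave counts of the same direction. Of 22 chitin genes, 12 were called lower, among them the chitin synthase kkv (log2 difference -1.84) and the chitin deacetylases Cda4 (-2.00), verm (-1.99) and serp (-1.68) and the chitinase Cht7 (-1.71), while Idgf6 (0.66), Idgf2 (0.58) and Gfat2 (0.42) were called higher. The Idgf genes encode secreted chitinase-like proteins without chitinase activity, and Gfat2 the first enzyme of the route to the chitin precursor. Of 17 tanning and pigment genes, 13 were called lower, among them ple, the tyrosine hydroxylase, at 19.7 ± 5.37 at 29°C and 113 ± 70.2 at 18°C (log2 difference -2.33, limma adjusted p = 0.00458) and Pu, the first enzyme of the route to its cofactor (-1.79). The yellow-family genes yellow-d2 (-2.27) and yellow-e (-2.08) and the laccase-family gene stw (-1.50) were also among them. The count of 13 was 8 without the ZT3 library at 18°C, where calls over all transcripts fell from 4325 to 2316.

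**Figure D5:**
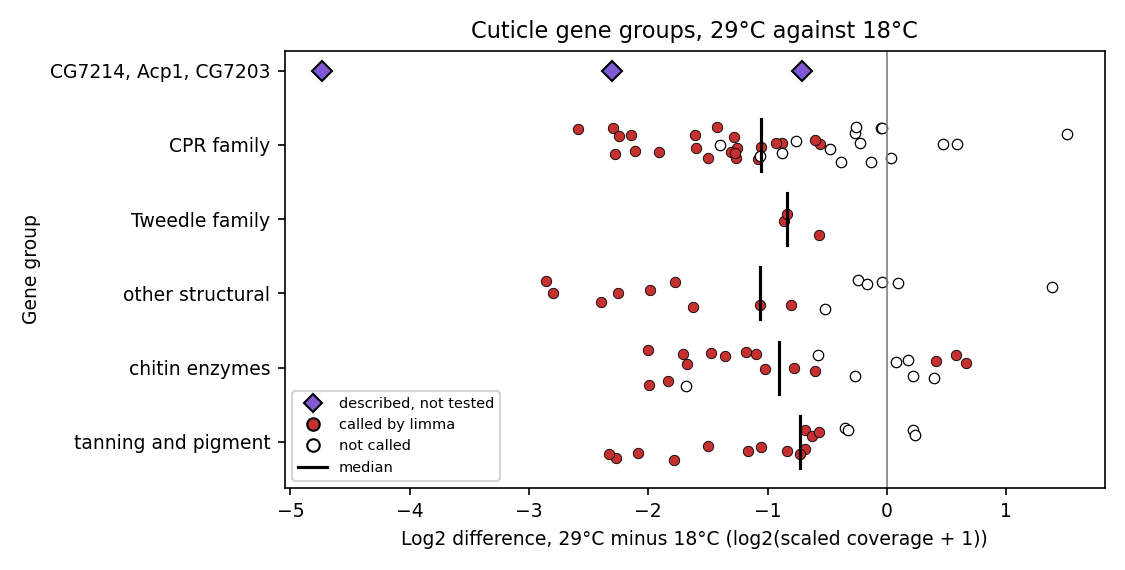
Log2 difference of 29°C minus 18°C, on the log2(scaled coverage + 1) scale, for the 3 members (diamonds, described and not tested) and for each gene of the 5 cuticle lists that passed the filter, filled where limma called it and open where not, with a line at the list's median. CG7214 (-4.73) lies beyond every gene of the lists, Acp1 (-2.30) among the lowest of them and CG7203 (-0.71) near the medians, which run from -1.06 to -0.73.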

How the data were processed

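PolyA+ RNA-seq libraries of Canton-S fly heads were analysed, 8 in all. The authors aligned paired-end reads to dm3 and deposited a signal per transcript, its average coverage per base pair. The submitters' processing notes name Bowtie2, TopHat and Cufflinks, with no role or version, and neither the annotation release nor a scaling step is given in the sources used here. Since the values are not counts, count models were left aside and precision rests on the spread between libraries. The table also holds 56 columns without a name, with values in 99 rows, which were not used.

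Libraries were scaled to a common sum of 1000000, values were taken as log2(scaled value + 1), and transcripts whose scaled values averaged 1 or more were kept (14799). A fold change on this scale understates that of low genes. Temperatures were compared with limma 3.58.1 (R 4.3.3) in 1 model over all 8 libraries, and time points in a second model with temperature as a term, with Benjamini-Hochberg adjustment over all transcripts and a threshold of 0.05. A gene is represented by its transcript with the highest mean coverage. The limma script was tested on simulated data. Symbols were found for 11379 of 11500 genes in the RefSeq gene table, and gene models were read from BDGP6. Nothing says that libraries come from separate cultures, so p-values measure the spread between these libraries, which include 1 per condition.

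The members and the lists of cuticle, marker and clock genes were chosen with earlier results of these data known. The CPR list takes symbols that start with Cpr and a digit, so that the gene Cpr itself, a reductase, is left out. It also takes the Lcp and Ccp84A genes, Pcp, Acp65Aa, Edg78E, Edg84A and resilin. Over all lists, 8 symbols were not matched. Named genes are the members, all listed neighbours within 20 kb, the 10 genes most like CG7214, and up to 5 called genes per cuticle list with the largest difference, with tim from the clock list as a check of the time labels. The 3 cuticle genes called higher and Cpr11A were added after their values were seen. Other settings were pseudocounts of 0.1 and 5, quantile normalization, 75th percentile scaling, a minimum mean of 5 or none, limma's trend option, time point as a block, no temperature term in the time-of-day tests, and leaving out each library in turn. Figures used matplotlib 3.10.9 (Python 3.11.15).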

Additional observations from a re-analysis of the deposited data

Results flagged for a closer look

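Several genes moved in opposite directions between the same time points at 29°C and at 18°C. Each value below is a log2 difference between 2 single libraries, so the difference between the temperatures was not tested. CG7214 differed between ZT15 and ZT3 by 0.73 at 29°C and -0.29 at 18°C, and between ZT23 and ZT3 by 0.77 at 29°C and -0.10 at 18°C. Acp1 differed between ZT15 and ZT3 by 1.06 at 29°C and -0.028 at 18°C, and between ZT23 and ZT3 by 0.83 at 29°C and -0.64 at 18°C. CG7203 did so between ZT23 and ZT3, by 0.19 at 29°C and -0.80 at 18°C. In all 5 of these the ZT3 library at 29°C, in which each member had its lowest value, was the lower of its pair.

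Among the neighbours, CG31904 differed between ZT15 and ZT3 by 1.04 at 29°C and -0.13 at 18°C, and between ZT23 and ZT3 by 0.72 at 29°C and -0.61 at 18°C, much as Acp1 did. CG13795 differed between ZT15 and ZT3 by -0.40 at 29°C and 0.12 at 18°C. CG7191 differed between ZT15 and ZT3 by 0.19 at 29°C and -0.018 at 18°C, and between ZT23 and ZT15 by -0.29 at 29°C and 0.013 at 18°C. The 29°C ZT15 library, which stood apart by its accessory gland and midgut markers, enters each of the ZT15 values.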

How the results depend on the processing

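The differences of the temperature means of the 3 members kept their direction with other pseudocounts, other scalings and any library left out. The block, trend and filter settings were not looked at for these differences. That of CG7203 for 25°C minus 18°C (0.33) ran from 0.0165 to 0.55 with a library left out, and differences between single libraries were not recomputed. The counts of called transcripts for single steps moved with the setting. For 25°C minus 18°C, the count of 1214 was 594 with a pseudocount of 0.1, 654 with quantile normalization and 1 to 2647 with a library left out. For 29°C minus 25°C, the count of 138 was 69 and 363 with pseudocounts of 0.1 and 5, 289 with a minimum mean of 5, 335 with 75th percentile scaling, 434 with quantile normalization, 336 with limma's trend and 5 to 1087 with a library left out. For 29°C minus 18°C, the count of 4325 was 2316 to 4523 with a library left out. With time point as a replicate block, 6369, 3639 and 726 transcripts were called for 29°C minus 18°C, 25°C minus 18°C and 29°C minus 25°C, and CG13794 passed (adjusted p = 0.0282), as the third neighbour called lower. The libraries share the time point and no label says more, and deviations of same-time libraries at 29°C and 18°C had an r between 0.096 and 0.311. A pseudocount of 5 and a minimum mean of 5 gave 7 and 5 calls for ZT15 minus ZT3, and 326 and 473 for ZT23 minus ZT15, where the trend gave 385. With a library left out, ZT15 minus ZT3 gave 0 to 14 and ZT23 minus ZT3 0 to 11. The cuticle genes called lower were 46 to 61 and those called higher 1 to 4, the tanning genes called lower 8 to 13 and the neighbours called lower 1 to 2. Of the Tweedle genes, 0 were called with a minimum mean of 5, and 6 cuticle genes were called higher with no filter, with 75th percentile scaling and with quantile normalization. Without the ZT3 library at 18°C, the tanning gene stw differed by -1.33 (adjusted p = 0.0575), and CG7191 passed under 75th percentile scaling (0.28, adjusted p = 0.0469). Uncalled time-of-day differences of the members turned sign. Without a temperature term, CG7214 differed by -0.14 (ZT23 minus ZT15) and Acp1 by -0.19 (ZT23 minus ZT3), which was -0.011 with 75th percentile scaling. With a library left out, CG7214 ran from -0.13 to 0.38 (ZT15 minus ZT3), -0.037 to 0.37 (ZT23 minus ZT15) and -0.053 to 0.58 (ZT23 minus ZT3), CG7203 from -0.75 to 0.0068 (ZT23 minus ZT3), and Acp1 from -0.071 to 0.61, -0.79 to 0.13 and -0.51 to 0.47 in the same 3 contrasts. The cause was not tested.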
